A study of Mus musculus with 5 samples.

Results

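The 10 genes described here encode proteins of the axon and its terminal. They are the neurofilament subunits Nefl, Nefm and Nefh, the growth and microtubule proteins Gap43, Stmn2, Tubb3 and Map2, the vesicle and soluble proteins Snap25 and Sncg, and the neuronal ubiquitin hydrolase Uchl1. They were chosen by name as neuronal transcripts that can be looked for in a cultured optic nerve, with earlier results of these data known. Every probe set that names one of them and no other gene was used. That gave 16 of the 45037 probe sets tested, and 10 of the 18193 genes that have a probe set of their own. Map2 had 4 probe sets, Nefl, Stmn2 and Snap25 had 2 each, and the other 6 genes had 1 each.

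Optic nerves of C57BL/6 mice aged P35 to P45 were kept as explants for 3 days in medium with LY294002, a blocker of PI3K that also acts on other kinases, and their RNA was then hybridised to Affymetrix mouse genome arrays. Of the arrays, 3 were of L-LY29, the low concentration, and 2 of H-LY29, the high one. The sample labels give 0.5 µM for L-LY29 and 50 µM for H-LY29, but the paper's methods give a higher low concentration for nerves of this age, so the L-LY29 dose was not settled here. The compound is written LY294002 in the titles of the samples but LY295002 in their treatment field. Arrays of untreated nerves were not analysed here, and each comparison is therefore between the doses. None of the sources used here says how nerves and mice were shared out over the arrays, so the p-values cover only the spread between these arrays, which may be technical.

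In the animal the optic nerve holds the axons of retinal ganglion cells, whose nuclei lie in the retina, wrapped by oligodendrocytes and set among astrocytes, oligodendrocyte progenitors (OPCs), microglia and connective tissue. An axon cut from its cell body undergoes Wallerian degeneration, in which the cytoskeleton is dismantled. Axons carry mRNA that was made in the cell body and transported, and they cannot replace it by transcription. Several of the 10 genes are not confined to neurons: Gap43 is also made by Schwann cells and by OPCs, and a short form of Map2 occurs in young oligodendrocytes. In RNA of a whole nerve, fewer axons or cells of a kind and less RNA in each cannot be told apart. The nerves were taken with the retina attached and then cleaned of other tissue, so markers of the retina were measured as well and are given after the 10 genes.

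The deposited values are log2 signals. Pearson correlation over all probe sets was 0.990 to 0.995 within a dose and 0.884 to 0.894 between doses. The 24 probe sets for bacterial poly-A RNAs, spiked in before labelling by the Affymetrix protocol, had a mean of 10.22 ± 0.24 in L-LY29 (SD, n = 3), against 3.17 ± 0.00473 in H-LY29 (SD, n = 2). The 3′ minus 5′ difference of the Actb and Gapdh control probe sets averaged 0.43 and -0.13 in L-LY29, against 0.92 and 0.69 in H-LY29, with no overlap between the doses. These controls moved with the dose, and the part of labelling and RNA quality in the differences below was not tested. The highest mean of any poly-A probe set in H-LY29, 4.14, is used below, for both doses, as a mark of signals that lie near background. The poly-A controls of L-LY29 were bright and give no such mark. Some values were equal to the last digit on several arrays of L-LY29, at 39.5% of all probe sets on at least 2 arrays and at 8.89% on all 3, and this also touched 6 and 2 of the 16 probe sets.

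By the brightest probe set of each gene, 6 of the 10 genes rose in L-LY29 relative to H-LY29 (Nefl, Nefm, Nefh, Gap43, Snap25 and Sncg), 3 fell (Uchl1, Tubb3 and, on the deposited scale only, Map2) and Stmn2 did not pass the test. Over all genes measured, 28.7% were called higher and 35.3% lower by the same rule, limma with a Benjamini-Hochberg adjusted p under 0.05. Counted by probe set, 9 of 16 (56.2%) were higher, where 28.6% of all probe sets were, and 4 of 16 (25.0%) were lower, where 30.3% of all probe sets were. The arrays of the doses did not overlap at 15 of the 16 probe sets (93.8%), against 72.3% of all probe sets. All 10 genes had their brightest probe set above the 40th percentile of mean signal, 4.76, and 14 of the 16 probe sets lay above it. The median difference of the 10 genes was 1.24 log2 units, L-LY29 minus H-LY29, and that of all genes was -0.0183. Called increases ran between 1.20 and 4.54 log2 units, while called decreases ran between -0.41 and -1.67.

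**Figure D1:**
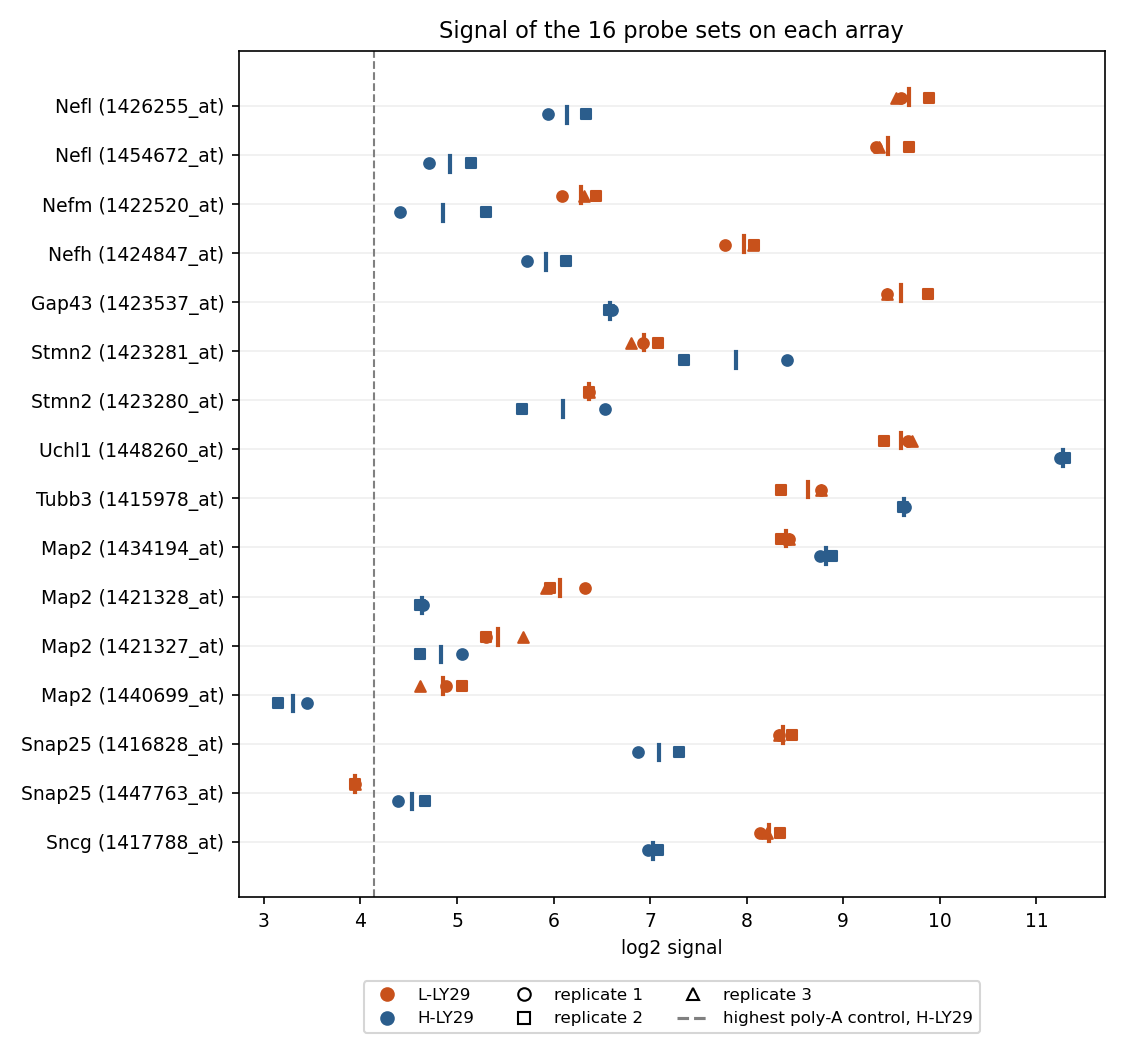
Log2 signal (horizontal axis) of each of the 16 probe sets on the 3 L-LY29 and 2 H-LY29 arrays; a marker is 1 array, its shape the replicate number, a vertical tick the mean of a dose, and the dashed line the highest poly-A control mean in H-LY29 (4.14). The L-LY29 arrays lie to the right of the H-LY29 arrays for the neurofilament genes, Gap43, Sncg and the brighter Snap25 probe set, and to the left for Uchl1, Tubb3 and the brightest Map2 probe set.

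All 3 neurofilament genes rose in L-LY29, by 1.43 to 3.54 log2 units at their brightest probe sets. Nefl encodes the light subunit, the core on which neurofilaments are assembled. Its brighter probe set (1426255_at) read 9.60, 9.89 and 9.55 on the L-LY29 arrays, against 5.94 and 6.34 on the H-LY29 arrays. Every L-LY29 array thus lay more than 3 log2 units above both H-LY29 arrays. The means were 9.68 ± 0.19 in L-LY29 (SD, n = 3), against 6.14 ± 0.28 in H-LY29 (SD, n = 2), a difference of 3.54 log2 units (SE 0.18, 95% interval 3.07 to 4.00, limma adjusted p = 0.000231), or 11.6-fold in signal.

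The second Nefl probe set (1454672_at) gave 9.34, 9.68 and 9.37 in L-LY29, against 4.71 and 5.14 in H-LY29. Again replicate 2 was the highest of L-LY29, and the doses were far apart. The difference of 4.54 log2 units (SE 0.18, interval 4.05 to 5.02, limma adjusted p = 0.000168) exceeded that of the first probe set, and the intervals of the pair do not overlap. Both probe sets therefore give the same direction and different sizes.

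Nefm, the medium subunit, lies beside Nefl on chromosome 14 with 1 gene between them in the annotation used here. Its only probe set (1422520_at) read 6.09, 6.44 and 6.32 on the L-LY29 arrays, against 4.41 and 5.30 on the H-LY29 arrays. The doses did not overlap, but the H-LY29 arrays lay nearly 1 log2 unit apart. Nefm was higher in L-LY29 by 1.43 log2 units (SE 0.30, interval 0.63 to 2.23, limma adjusted p = 0.014). The call was lost without L-LY29 replicate 2 (1.35, adjusted p = 0.0564) and without L-LY29 replicate 3 (1.41, adjusted p = 0.0563).

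Nefh encodes the heavy subunit, whose long phosphorylated tail spaces the filaments in large axons. It read 7.77, 8.08 and 8.07 in L-LY29, against 5.72 and 6.13 in H-LY29 (1424847_at). The 3 L-LY29 arrays were close together and all above both H-LY29 arrays. The difference was 2.05 log2 units (SE 0.18, interval 1.58 to 2.52, limma adjusted p = 0.000858), 4.14-fold in signal. Without any 1 array Nefh still passed, as Nefl did.

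The other intermediate filament genes did not move as one. Of 10 measured, 4 were higher, 4 lower and 2 not called, with a median of -0.00851 that becomes 0.21 with equal array medians. By the smallest adjusted p, Synm, a muscle and glial filament protein (2.94, limma adjusted p = 0.000311), and Des, the muscle filament desmin (1.30, 0.000377), were higher, while Vim, the vimentin of glia and connective tissue (-0.97, 0.00041), was lower. The neuronal members of that list, chosen here after their values were seen, were both higher in L-LY29. Ina, alpha-internexin, read 7.66, 7.93 and 7.49 in L-LY29, against 6.83 and 7.12 in H-LY29 (0.72 log2 units, limma adjusted p = 0.0206). Its call was lost without L-LY29 replicate 1 (adjusted p = 0.0647), H-LY29 replicate 1 (0.133) or H-LY29 replicate 2 (0.0635). Prph, peripherin, read 6.20, 5.80 and 5.64 in L-LY29, against 4.16 and 3.93 in H-LY29 (1.83 log2 units, adjusted p = 0.00173), where its H-LY29 mean of 4.05 lies under the background mark of 4.14. Of its 4 probe sets 2 were called higher and 0 lower.

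Gap43 encodes the growth cone protein GAP-43, a substrate of protein kinase C that is raised in regenerating axons. Its probe set (1423537_at) read 9.45, 9.88 and 9.45 on the L-LY29 arrays, against 6.61 and 6.57 on the H-LY29 arrays. L-LY29 replicates 1 and 3 held the same value and replicate 2 was higher, and all stood well clear of H-LY29. The difference of 3.01 log2 units (SE 0.16, interval 2.59 to 3.43, limma adjusted p = 0.000261) amounts to 8.05-fold in signal. Of 6 related calmodulin and protein kinase C substrates, 2 were higher, 2 lower and 2 not called, with a median of 0.28, and with equal array medians 4 were higher and 1 lower. Pcp4, a small calmodulin regulator, was higher by 2.40 log2 units (limma adjusted p = 0.000173). Marcks, a membrane and actin linker, was lower (-1.16, 0.00122) by its brightest probe set, though 1 of its 7 probe sets was called higher. Basp1, a growth cone protein that binds membranes much as GAP-43 does, was lower by a small margin (-0.22, 0.00662), which became 0.00134 (adjusted p = 0.978) with equal array medians.

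Stmn2 encodes stathmin 2, a tubulin-binding protein of growing axons whose loss impairs regrowth. Its brighter probe set (1423281_at) read 6.93, 7.08 and 6.80 in L-LY29, against 8.42 and 7.35 in H-LY29. All L-LY29 arrays were below both H-LY29 arrays, which differed from each other by more than the L-LY29 arrays did. The difference of -0.95 log2 units (SE 0.34, interval -1.85 to -0.05, limma adjusted p = 0.0687) did not pass. Without H-LY29 replicate 2 it was -1.48 (adjusted p = 0.0113) and without H-LY29 replicate 1 it was -0.42 (0.107), so the call turned on which H-LY29 array was kept. It also passed when dim probe sets were left out of the adjustment (adjusted p = 0.0488 and 0.0411 above the 40th and 60th percentile).

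The second Stmn2 probe set (1423280_at) held the same value, 6.37, on all 3 L-LY29 arrays, and read 6.53 and 5.67 in H-LY29. The doses overlapped, with 1 H-LY29 array above and 1 below. Its difference of 0.27 log2 units (interval -0.45 to 0.98, limma adjusted p = 0.435) did not pass. Without H-LY29 replicate 1 the difference was 0.70 and without H-LY29 replicate 2 it was -0.17. With 1 H-LY29 array left and equal L-LY29 values, those fits had no spread to test against. After quantile normalization of all arrays the difference was 0.69 (limma adjusted p = 0.0464). No direction can be given for Stmn2 from these arrays. The 3 other stathmin genes measured were all called higher in L-LY29, with a median of 0.98. Stmn3, a stathmin of neurons, was higher by 1.25 log2 units (limma adjusted p = 0.00018), Stmn1, the widely expressed founder of the family, by 0.98 (0.000882) and Stmn4 by 0.79 (0.00121).

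**Figure D2:**
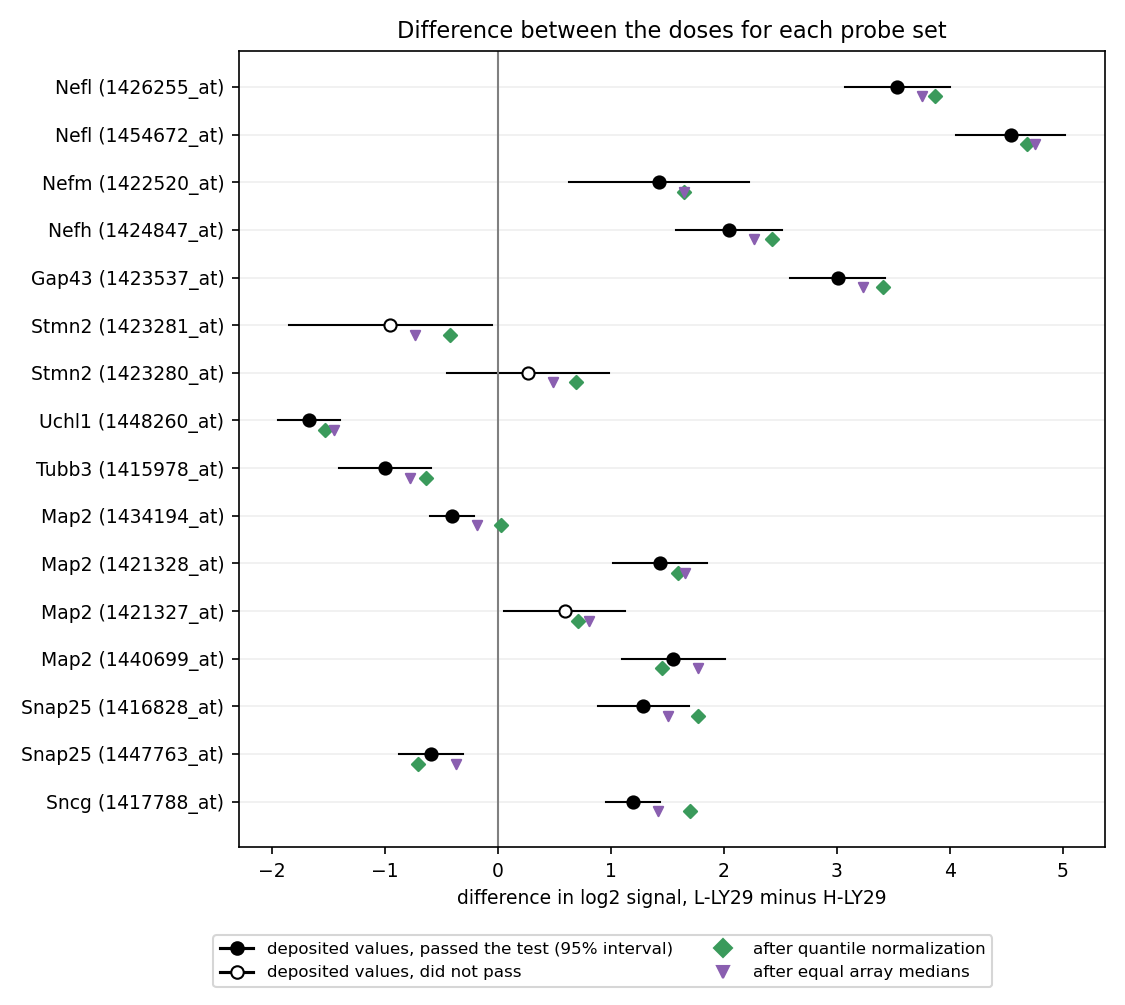
Difference in log2 signal between the doses (horizontal axis, L-LY29 minus H-LY29) for the 16 probe sets, with 95% intervals from limma on the deposited values (circles, filled where the adjusted p was under 0.05) and the values after quantile normalization (diamonds) and with equal array medians (triangles). The differences span -1.67 for Uchl1 to 4.54 for a Nefl probe set, and the brightest Map2 probe set is at -0.41 as deposited and at 0.0266 after quantile normalization.

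Uchl1 and Tubb3 were both lower in L-LY29 and Sncg was higher, and these are the genes whose annotated promoter window ends at the gene's start, so their 250 bases before the start are shown together. Of the 10 genes, 4 had a window in the RefSeq table of GRCm38.p6 used here. The windows are Uchl1 at chr5:66675871-66676120 on the plus strand, Tubb3 at chr8:123411303-123411552 on the plus strand and Sncg at chr14:34374670-34374919 on the minus strand, each written 5′ to 3′ on the gene's strand. Capitals mark matches, on either strand, to a TATA box (TATAA), a GC box (GGGCGG) or a CCAAT box (CCAAT):
Uchl1: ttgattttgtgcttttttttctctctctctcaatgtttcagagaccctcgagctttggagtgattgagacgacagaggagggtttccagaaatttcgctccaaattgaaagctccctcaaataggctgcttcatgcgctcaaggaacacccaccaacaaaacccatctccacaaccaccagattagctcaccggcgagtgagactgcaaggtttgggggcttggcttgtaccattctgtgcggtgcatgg
Tubb3: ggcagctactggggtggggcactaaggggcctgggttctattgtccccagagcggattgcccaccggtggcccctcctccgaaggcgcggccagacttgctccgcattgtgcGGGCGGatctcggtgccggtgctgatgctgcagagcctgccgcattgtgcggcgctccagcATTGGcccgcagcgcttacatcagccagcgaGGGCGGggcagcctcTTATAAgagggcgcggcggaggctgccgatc
Sncg: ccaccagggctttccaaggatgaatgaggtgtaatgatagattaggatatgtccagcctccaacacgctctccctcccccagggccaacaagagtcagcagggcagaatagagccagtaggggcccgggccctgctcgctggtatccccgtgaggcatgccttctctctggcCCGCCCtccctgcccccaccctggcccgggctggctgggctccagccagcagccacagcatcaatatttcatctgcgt
The Tubb3 window held 21 CpG dinucleotides and was 68.0% G or C, with 2 GC boxes, 1 CCAAT box and a TATA box whose letters matched on both strands at 1 place. The Uchl1 window held 7 CpG, was 48.8% G or C and held 0 of these motifs, and the Sncg window held 7 CpG, was 61.6% G or C and held 1 GC box. Among all 32851 windows of the same length, 22.8% held TATAA, 32.7% GGGCGG and 33.8% CCAAT, and the median was 6 CpG (quartiles 2 and 16) and 52.4% G or C. These matches describe letters in a window and not bound sites.

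Uchl1 encodes a ubiquitin C-terminal hydrolase that is among the most abundant proteins of neurons. Its probe set (1448260_at) read 9.67, 9.42 and 9.71 on the L-LY29 arrays, against 11.24 and 11.30 on the H-LY29 arrays. The H-LY29 arrays were nearly equal and all L-LY29 arrays were below them, replicate 2 the most. The means were 9.60 ± 0.15 in L-LY29 (SD, n = 3), against 11.27 ± 0.05 in H-LY29 (SD, n = 2), a difference of -1.67 log2 units (SE 0.10, interval -1.94 to -1.40, limma adjusted p = 0.000363), or 3.18-fold lower in L-LY29. Of 4 other genes of the hydrolase family, 1 was higher, 0 lower and 3 not called, with a median of 0.33. Uchl5, a hydrolase of the proteasome, was higher (0.81, limma adjusted p = 0.000869) by its brightest probe set and lower by its other one. Bap1 and Usp14 did not pass as deposited (0.34 and 0.33, limma adjusted p = 0.115 and 0.128). After quantile normalization both passed (0.74 and 0.70, limma adjusted p = 0.0117 and 0.0136), as they did with equal array medians (0.56 and 0.55, 0.02 and 0.0206). Of the 4 genes, 3 were higher after quantile normalization and 4 with equal array medians.

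Tubb3 encodes class III beta-tubulin, used widely as a marker of neurons. It read 8.77, 8.35 and 8.77 in L-LY29, against 9.64 and 9.62 in H-LY29 (1415978_at). L-LY29 replicates 1 and 3 held the same value, and all 3 were below H-LY29. The difference was -0.999 log2 units (SE 0.15, interval -1.41 to -0.59, limma adjusted p = 0.00511), and it was -0.64 (adjusted p = 0.0121) after quantile normalization. The size hardly moved without either H-LY29 array (-0.99 without replicate 1, -1.01 without replicate 2), but the call was lost (adjusted p = 0.059 and 0.0565). Of 14 other tubulin genes measured, 3 were higher, 6 lower and 5 not called, with a median of -0.36. Tubd1, delta-tubulin of centrioles (-2.44, limma adjusted p = 0.000816), and Tuba4a, an alpha-tubulin (-1.31, 0.00108), were lower, and Tubb1, the beta-tubulin of platelets (1.16, 0.00107), was higher, at an H-LY29 signal of 2.48 and 2.76 that lies near background.

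Map2 encodes a microtubule-associated protein of dendrites and, in a short form, of immature cells, and its 4 probe sets did not go the same way. The brightest (1434194_at) read 8.44, 8.35 and 8.44 in L-LY29, against 8.76 and 8.88 in H-LY29. The arrays of each dose were tight and did not overlap, and the difference was small. It was -0.41 log2 units (SE 0.07, interval -0.60 to -0.22, limma adjusted p = 0.00815), but 0.0266 (adjusted p = 0.794) after quantile normalization and -0.19 (0.106) with equal array medians. A direction of this probe set therefore depends on the scaling of the arrays.

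The dimmer Map2 probe sets were higher in L-LY29 or did not pass. Probe set 1421328_at read 6.33, 5.96 and 5.92 in L-LY29, against 4.65 and 4.62 in H-LY29 (1.44 log2 units, interval 1.02 to 1.85, limma adjusted p = 0.00168). Probe set 1440699_at read 4.89, 5.05 and 4.62 in L-LY29, against 3.45 and 3.15 in H-LY29 (1.55, interval 1.10 to 2.01, adjusted p = 0.00178). Its H-LY29 values lie below 4.14, among the poly-A controls, and with a floor at the 30th percentile of each array the difference was 0.83. Probe set 1421327_at read 5.30, 5.30 and 5.68 in L-LY29, against 5.05 and 4.62 in H-LY29 (0.59, interval 0.06 to 1.13, adjusted p = 0.0608). The last one missed the threshold as deposited and passed under 4 alternatives, equal array medians among them (0.81, adjusted p = 0.015), while without H-LY29 replicate 2 it was 0.37 (0.268). Calls in both directions were common, since 45.2% of genes that had 2 or more called probe sets showed them (2355 of 5206).

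Of 15 other microtubule-associated protein genes, 6 were higher in L-LY29, 5 lower and 4 not called, with a median of 0.16. Map1b, a protein of growing axons, read 11.25, 11.27 and 11.01 in L-LY29, against 8.78 and 8.68 in H-LY29 by its brightest probe set. That is 2.45 log2 units (limma adjusted p = 0.000169), while 1 of its 3 probe sets was called lower. Mapre1, a protein that tracks the growing ends of microtubules, was higher by 1.27 log2 units (limma adjusted p = 0.000175) and at all 5 of its probe sets. Map7d2, a binding partner of kinesin, was higher by 1.41 log2 units (0.00018).

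Snap25 encodes a plasma membrane SNARE that drives fusion of synaptic vesicles. Its brighter probe set (1416828_at) read 8.33, 8.47 and 8.33 on the L-LY29 arrays, against 6.87 and 7.30 on the H-LY29 arrays. All L-LY29 arrays were above both H-LY29 arrays by over 1 log2 unit. The difference was 1.29 log2 units (SE 0.15, interval 0.88 to 1.69, limma adjusted p = 0.00219), or 2.44-fold in signal. The second probe set (1447763_at) held 3.94 on all 3 L-LY29 arrays, against 4.39 and 4.67 in H-LY29 (-0.59, interval -0.87 to -0.31, limma adjusted p = 0.00838). Its L-LY29 value lies below 4.14, the mark taken from the H-LY29 poly-A controls, so the lower call concerns signals near that mark.

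Of 22 other SNARE and synaptic vesicle genes, 8 were higher in L-LY29, 7 lower and 7 not called. Their median of -0.0630 became 0.22 after quantile normalization and 0.16 with equal array medians, where 11 were higher and 6 lower. Stx4a, a syntaxin of many cell types, was higher by 2.30 log2 units (limma adjusted p = 0.000126). Cplx1, complexin 1 of nerve terminals, read 9.94, 10.21 and 9.95 in L-LY29, against 5.99 and 6.24 in H-LY29 (3.92 log2 units, adjusted p = 0.000142), and all 3 of its probe sets were higher. Vamp2, the vesicle SNARE that pairs with Snap25, read 8.88, 8.97 and 8.82 in L-LY29, against 10.95 and 10.99 in H-LY29 (-2.08, adjusted p = 0.000136). The SNARE partners Snap25 and Vamp2 were thus called in opposite directions.

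Sncg encodes gamma-synuclein, which in the retina is strongest in ganglion cells. Its probe set (1417788_at) read 8.14, 8.34 and 8.21 in L-LY29, against 6.98 and 7.08 in H-LY29. Both doses were tight, with more than 1 log2 unit between them. The means were 8.23 ± 0.10 in L-LY29 (SD, n = 3), against 7.03 ± 0.07 in H-LY29 (SD, n = 2), a difference of 1.20 log2 units (SE 0.09, interval 0.95 to 1.44, limma adjusted p = 0.000615). Of the 2 related genes measured, Sncb, beta-synuclein of nerve terminals, read 7.89, 8.09 and 7.99 in L-LY29, against 5.01 and 5.71 in H-LY29 (2.63, adjusted p = 0.000894). Sncaip, a partner of alpha-synuclein, was lower (-0.53, adjusted p = 0.00763), which was -0.32 (0.0503) after quantile normalization.

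**Figure D3:**
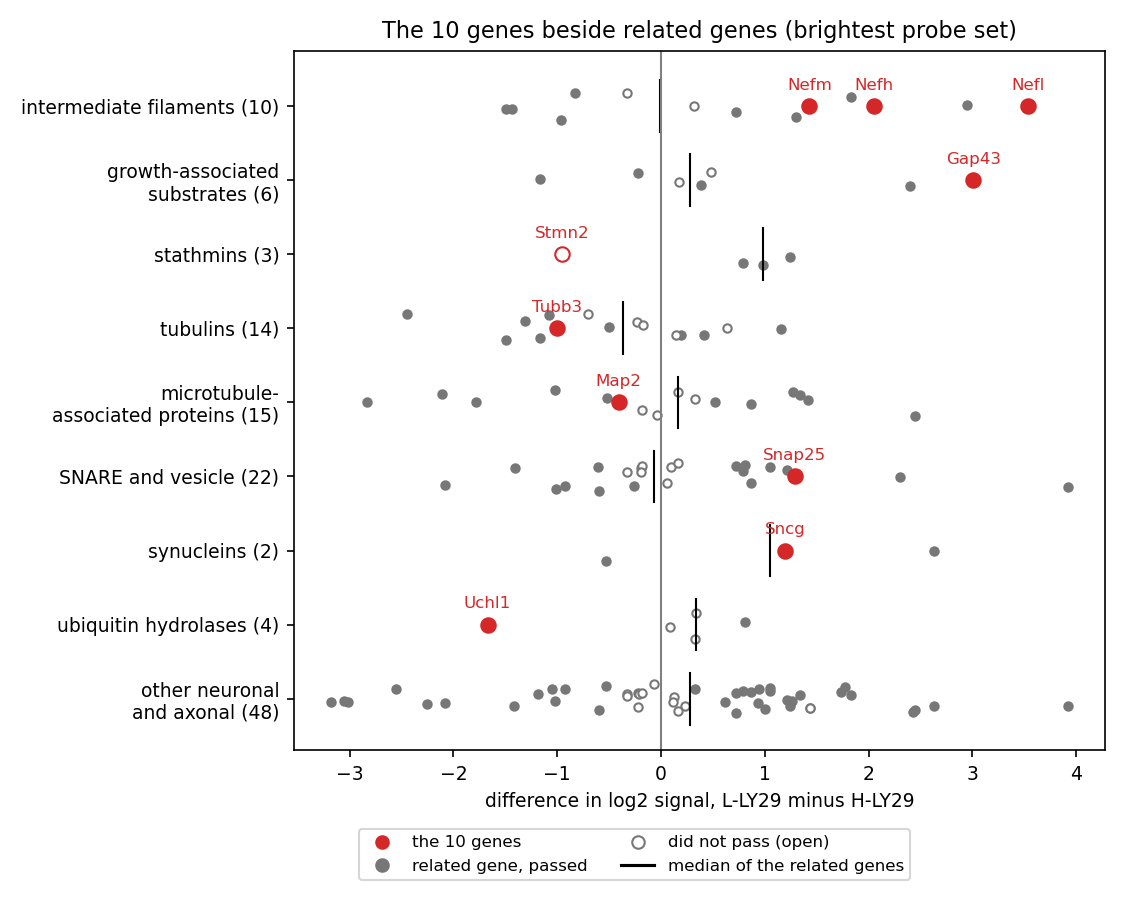
Difference in log2 signal between the doses (horizontal axis, L-LY29 minus H-LY29) of the 10 genes (red, open where not called) beside other genes of their families and a wider neuronal list (grey, 1 point per gene by its brightest probe set, open where not called), with the number of related genes in brackets and a black line at their median. The medians of the families lie between -0.36 (tubulins) and 1.05 (synucleins), and the related genes lie on both sides of 0 in every family except the stathmins and the ubiquitin hydrolases.

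A wider list of other neuronal and axonal genes was split. Of 48 measured, 23 were higher in L-LY29 (where 28.7% of all genes were), 14 were lower (where 35.3% were) and 11 were not called, and the median was 0.28, against -0.0183 over all genes. It was 0.65 after quantile normalization and 0.50 with equal array medians. Eno2, the neuronal enolase of glycolysis, read 7.75, 7.66 and 7.59 in L-LY29, against 10.74 and 10.96 in H-LY29 (-3.18, limma adjusted p = 0.000129). Vamp2 and Cplx1, given above, were the other genes of the list with the smallest adjusted p. The neuronal genes with the smallest adjusted p thus lay on both sides, as the 10 genes do.

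Replicate 2 of L-LY29 stood out among the 10 genes. It was the highest L-LY29 array at 8 of the 9 probe sets called higher, against 38.9% of all probe sets called higher, and the lowest at 3 of the 4 called lower, against 34.3%. On that array the ocular surface and astrocyte markers, given below, were the lowest of L-LY29, and their part was not tested. Leaving it out kept the calls of all but 1 of the 9 genes, Nefm being the exception.

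Genes that mark retinal ganglion cells did not move as one. Of 16 measured, 6 were higher in L-LY29, 4 lower and 6 not called, with a median of 0.16, which was 7e-05 after quantile normalization, and 8 lay above the 40th percentile. With equal array medians 8 were higher and 2 lower. Their mean log2 signal was 4.94 to 5.07 on the L-LY29 arrays, against 5.06 to 5.35 on the H-LY29 arrays, beside array medians over all probe sets of 5.32 to 5.34 for L-LY29, against 5.54 to 5.56 for H-LY29. Tppp3, a tubulin polymerization protein chosen here after its values were seen, was bright and read 11.98, 11.78 and 12.02 in L-LY29, against 11.38 and 11.26 in H-LY29 (0.61, limma adjusted p = 0.00454). Without H-LY29 replicate 2 its difference was 0.55 and the call was lost. Of the factors that define these cells, Pou4f1 read 3.87, 3.80 and 3.78 in L-LY29, against 4.29 and 5.23 in H-LY29 (-0.94, limma adjusted p = 0.0471), and the call was lost without any 1 of the L-LY29 arrays (adjusted p 0.117 to 0.132). Slc17a6, their vesicular glutamate transporter, held 3.82 on all 3 L-LY29 arrays, against 3.45 and 3.62 in H-LY29 (0.29, 0.0276), a call that was also lost without any 1 of the L-LY29 arrays (0.0759 to 0.0775). All their L-LY29 values lay under 4.14. Rbpms, an RNA-binding protein of ganglion cells and also of vessel walls, read 5.68, 4.94 and 5.68 in L-LY29, against 7.53 and 8.36 in H-LY29 (-2.52, adjusted p = 0.00427). That is its brightest probe set, and of its 4 probe sets only 1 was called lower and 0 higher.

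Other ganglion cell genes named by the smallest adjusted p each had 1 dose under the background mark of 4.14. Ebf1, a transcription factor also of connective tissue, read 3.88, 3.90 and 4.13 in L-LY29, against 7.53 and 7.85 in H-LY29 (-3.72, limma adjusted p = 0.000163), and 1 of its other 4 probe sets was called higher. Opn4, melanopsin, read 5.21, 5.23 and 5.18 in L-LY29, against 3.25 and 2.99 in H-LY29 (2.08, adjusted p = 0.000238). Isl1, a homeodomain factor, read 4.54, 4.29 and 4.60 in L-LY29, against 2.84 and 3.12 in H-LY29 (1.50, adjusted p = 0.00111). The sizes of these differences thus rest on signals near background at 1 dose.

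Photoreceptor genes had a mean of 4.92 to 4.99 in L-LY29, against 4.68 to 4.70 in H-LY29, and 10 of 20 were at or under 4.14 at both doses. Of these 20, 9 were higher, 3 lower and 8 not called. Of 16 genes of other retinal neurons 5 were higher, 4 lower and 7 not called (9 higher and 4 lower with equal array medians), and of 14 genes of retinal pigment epithelium and Müller glia 6 were higher, 3 lower and 5 not called. By the smallest adjusted p, Pcp2, Slc6a9 and Prkca of other retinal neurons were lower at their brightest probe sets (-4.16, -1.76 and -2.13, limma adjusted p = 0.00035, 0.00085 and 0.000909). Only 1 of the 3 Pcp2 probe sets, 1 of the 2 of Slc6a9 and 2 of the 3 of Prkca were called lower, and 0 were called higher. In the pigment epithelium and Müller glia list Lrat and Tyr were higher (1.75 and 1.20, limma adjusted p = 0.000257 and 0.000646) and Crym lower (-1.96, 0.000484). Tyr lay under the background mark of 4.14 at both doses, Lrat in H-LY29 and Crym in L-LY29. Among photoreceptor genes, Gnb1, a G protein subunit made in many cell types, had the smallest adjusted p. It read 10.53, 10.58 and 10.69 in L-LY29, against 13.03 and 12.99 in H-LY29 (-2.41, limma adjusted p = 0.000126) by its brightest probe set, while its other 2 probe sets were called higher. Arr3, the arrestin of cones, read 5.74, 5.73 and 5.73 in L-LY29, against 4.36 and 4.49 in H-LY29 (1.31, adjusted p = 0.000386), and Opn1mw, a cone opsin, was also higher (1.14, 0.000641). At or under 4.14 at both doses were 2 of the 16 ganglion cell genes, 4 of the 16 genes of other retinal neurons and 2 of the 14 of pigment epithelium and Müller glia. The brightest probe sets of the 10 genes averaged above 4.14 at both doses.

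Markers of the other cells of the nerve are given beside all genes, of which 28.7% were called higher and 35.3% lower. Calls were thus common among all genes, and a list's counts alone do not show that a cell type changed. Oligodendrocyte markers averaged 12.26 to 12.35 in L-LY29, against 11.96 to 12.10 in H-LY29 (8 of 11 higher, 3 lower), with Mbp, myelin basic protein, higher by 0.35 (limma adjusted p = 0.00225), which was 0.12 (0.153) after quantile normalization. Astrocyte markers averaged 9.11, 8.42 and 9.04 in L-LY29, against 10.38 and 10.21 in H-LY29 (1 of 11 higher, 6 lower), and Gfap did not pass (-0.33, adjusted p = 0.151). OPC markers averaged 7.82 to 8.13 in L-LY29, against 8.36 to 8.66 in H-LY29 (2 of 11 higher, 5 lower). Their median difference was -0.65, and -0.19 after quantile normalization. With higher and lower calls pooled, the share called in the astrocyte and OPC lists was near that of all genes. Within these lists most calls were lower. The median difference of the astrocyte markers was -1.49, which was -1.28 after quantile normalization and -1.27 with equal array medians. The mean signals of these glial lists did not move the same way.

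Microglia markers averaged 9.43 to 9.54 in L-LY29, against 8.74 to 8.94 in H-LY29 (6 of 9 higher, 2 lower, and 7 and 1 after quantile normalization). Fibroblast and meningeal markers averaged 6.87 to 7.48 in L-LY29, against 9.48 to 9.91 in H-LY29 (0 of 10 higher, 10 lower). Schwann cell markers averaged 7.04 to 7.26 in L-LY29, against 7.51 to 7.62 in H-LY29 (2 of 7 higher, 4 lower, and 2 and 2 after quantile normalization). Connective tissue thus gave less signal in L-LY29 relative to H-LY29.

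Ocular surface epithelium markers, keratins and other genes of the cornea and conjunctiva, averaged 10.23, 7.56 and 8.48 in L-LY29, against 4.15 and 4.02 in H-LY29 (8 of 10 higher, 0 lower). Signal of this epithelium was thus far higher in L-LY29 and differed between its arrays by more than 2 log2 units. Skeletal muscle markers averaged 4.43 to 4.56 in L-LY29, against 4.38 to 4.53 in H-LY29 (3 of 10 higher, 2 lower, but 3 and 4 after quantile normalization). The mean signal of the 10 genes, which pools genes called in both directions, was 8.32, 8.43 and 8.37 in L-LY29, against 7.46 and 7.59 in H-LY29. The part of these tissues in the differences of the 10 genes was not tested.

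**Figure D4:**
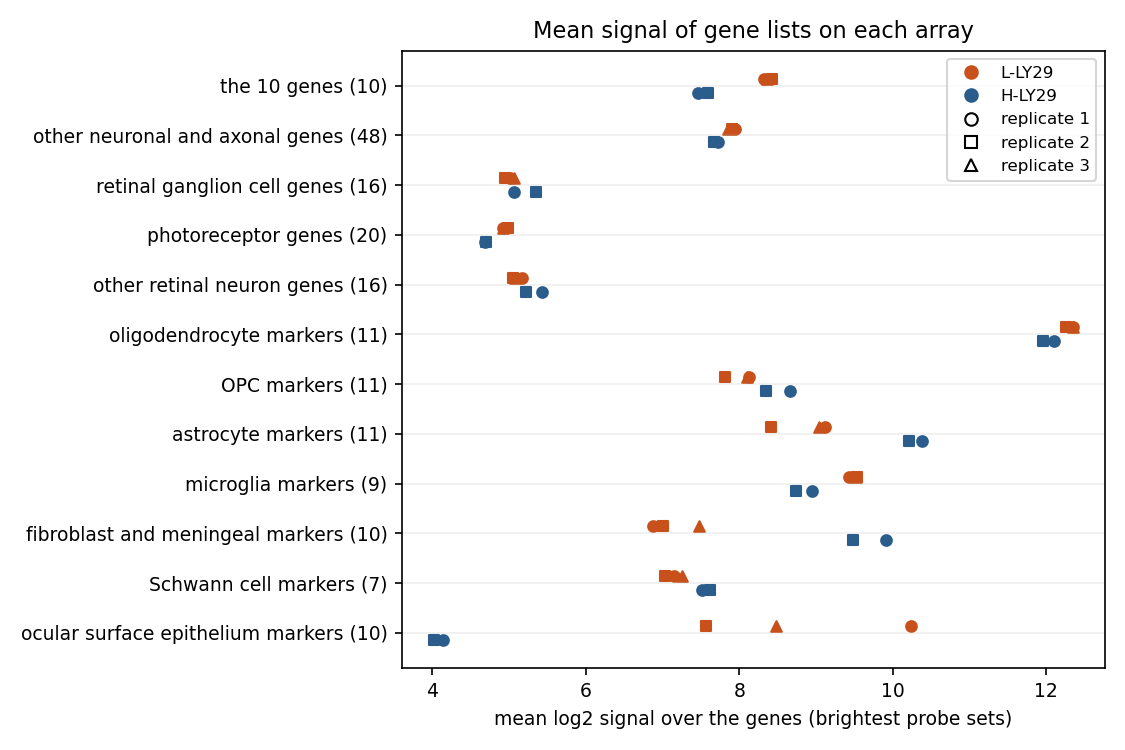
Mean log2 signal (horizontal axis) of gene lists on each of the 3 L-LY29 and 2 H-LY29 arrays, 1 marker per array, with the number of genes measured in brackets. The 10 genes lie between 8.32 and 8.43 in L-LY29 and at 7.46 and 7.59 in H-LY29, while ocular surface markers run between 7.56 and 10.23 in L-LY29 and lie near 4 in H-LY29.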

How the data were processed

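Per the labels and the paper's methods, total RNA of cultured nerves was labelled as biotinylated cRNA, read in Affymetrix GeneChip Operating Software and normalised with MAS-5 in GeneSpring. The values deposited by the authors are log2 signals of 45101 probe sets on 5 arrays. The sources used here do not say why some values are equal to the last digit on several arrays.

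Values were used as deposited. After 64 control probe sets were left out, 45037 were tested with no filter on low values, so that every probe set of the 10 genes was kept. Gene names came from the platform annotation, in which 34945 probe sets name 1 gene and 932 name several, and the brightest probe set, by its mean over the 5 arrays, stood for a gene. L-LY29 was set against H-LY29 with limma 3.58.1 (R 4.3.3), by lmFit and a two-sided moderated test from eBayes with a trend on intensity, and features with a Benjamini-Hochberg adjusted p under 0.05 were called. Every difference is L-LY29 minus H-LY29, and intervals are 95%. The fit was tested on simulated data.

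The 10 genes, the lists of related genes and of cell type markers, and the rule for naming were chosen with earlier results of these data known. The rule took all 10 genes, from each list the 3 genes at most that had the lowest adjusted p, and a few defining markers, of which those that bear on the 10 genes are given. Lists are counted over each gene's brightest probe set. The alternatives were filters at the 40th and 60th percentile, a floor at the 30th percentile of each array, quantile normalization, equal array medians, eBayes with no trend, a block for the replicate number, 1 probe set per gene, a difference over 1 log2 unit, and each array left out in turn. The number of arrays limits the precision.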

Additional observations from a re-analysis of the deposited data

How the results depend on the processing

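Of 139 comparisons of a single gene under an alternative, 126 kept both the direction and the side of the threshold. The exceptions were Nefm, Stmn2, Tubb3 and Map2, of which 1 changed sign: the brightest Map2 probe set was 0.0266 after quantile normalization, against -0.41 as deposited. Requiring a difference over 1 log2 unit left 1 of the 16 probe sets called lower and 9 called higher. Stmn2 also passed with 1 probe set per gene above the 40th percentile (adjusted p = 0.0485).

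Leaving out 1 L-LY29 array at a time gave 8 to 9 probe sets higher, 4 lower, 8 to 9 of the 10 genes called, and 14 of the other neuronal genes lower. Fits without an H-LY29 array keep 1 array of that dose, so their counts are not given. Equal array medians moved the median of all probe sets to 0.23, against 0.0146 as deposited, and the share of calls that are higher to 63.9%, against 48.6%. After quantile normalization these were 0.0279 and 52.4%.

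Replicate numbers 1 and 2 are shared by the doses, and deviations of same-numbered arrays correlated at 0.0157 and 0.0349, with only 2 pairs, so the numbers were not taken to pair the arrays. With the replicate block 2 probe sets were lower and 9 higher, as the brightest Map2 probe set (adjusted p = 0.0801) and the dim Snap25 one (0.0632) lost their calls. The cause was not tested. With 3 arrays against 2 the spread of a dose rests on few values, and probe sets near the poly-A controls of H-LY29 have little signal above background.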

Other observations

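Genes that neurons and glia raise after an axon is cut were read beside the 10 genes. Of 18 measured, all above the 40th percentile, 2 rose in L-LY29, 7 fell and 9 did not pass, with a median of -0.29. Over all genes 28.7% were called higher and 35.3% lower, so the count of falls alone does not set this list apart. After quantile normalization 4 were higher and 7 lower (median -0.12), and with equal array medians 4 were higher and 6 lower (median -0.0675). Sox11, a transcription factor of growing neurons and of OPCs, read 5.63, 5.73 and 5.78 on the L-LY29 arrays, against 10.13 and 9.88 on the H-LY29 arrays, a difference of -4.29 log2 units (SE 0.11, limma adjusted p = 0.000126). Of its 6 probe sets 4 were lower and 1 was higher. Klf6, a zinc finger factor, was lower by its brightest probe set (-1.49, SE 0.08, limma adjusted p = 0.000259), as were 4 of its 5 probe sets, while 1 was higher. Jun, the AP-1 subunit needed for the response of a neuron to axotomy, read 11.25, 11.21 and 11.09 in L-LY29, against 10.42 and 10.46 in H-LY29 (0.74 log2 units, SE 0.06, limma adjusted p = 0.000785), and its other probe set was lower. Atf3, a classical marker of a cut axon's cell body, was chosen here after its values were seen. It read 10.68, 10.36 and 10.60 in L-LY29, against 9.74 and 10.29 in H-LY29, and did not pass as deposited (0.53, limma adjusted p = 0.0788). It passed after quantile normalization (0.74, limma adjusted p = 0.0265), with equal array medians (0.75, 0.0182) and with the 60th percentile filter (0.53, 0.0486).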
